A study of Mus musculus with 24 samples.

Results

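The genes described here are the 10 heat shock protein genes Hspa1a, Hspa1b, Hspa8, Hsph1, Dnajb1, Hsp90aa1, Hsp90ab1, Hspb1, Hspd1 and Hspe1, chosen by symbol among the 52178 genes of the count table, which holds each of them once. The 24 RNA-seq libraries form 6 groups of 4 and come from explants of C57/BL6 mice (C57/BL6J in the methods). Hip caps were the femoral heads of 4-week-old male mice, mostly articular cartilage, with 2 hip caps pooled in each library (per the methods both from 1 mouse). Metatarsals came from embryos at embryonic day 15, a growth plate model, with 6 bones of unstated sex pooled in each library. All explants were cultured for 24 hours, sealed in syringes inside a water-filled vessel at room temperature for 1 hour at 0 MPa (control), 5 MPa (called physiological) or 50 MPa (called injurious), and cultured for 24 hours more. The controls thus went through the same handling, and the RNA was taken a day after the pressure. Per the methods the culture medium differed by tissue. It was DMEM with GlutaMAX for hip caps, and alpha-MEM with BSA, beta-glycerophosphate and ascorbic acid phosphate for metatarsals. The sample labels write mPa and the methods MPa, and the unit of the methods was used.

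Heat shock proteins are molecular chaperones, which bind unfolded or newly made proteins and help them fold. When proteins unfold, the heat shock factor HSF1 binds repeats of the element GAA and its reverse complement in promoters and induces the stress-responsive members within minutes to hours, after which the response decays. Cartilage cells express the constitutive members at all times, and heat, acute mechanical load and tissue handling are known inducers of the inducible ones. Hspa1a and Hspa1b encode the inducible cytosolic HSP70, and Hspa8 encodes its constitutive relative. Dnajb1 encodes an HSP40 protein that hands clients to HSP70, and Hsph1 encodes an HSP110 protein that helps HSP70 to exchange its nucleotide. Hsp90aa1 and Hsp90ab1 encode the cytosolic HSP90 forms, Hspb1 a small heat shock protein, and Hspd1 and Hspe1 the mitochondrial chaperonin HSP60 and its lid HSP10.

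Promoter sequence was read for the 250 bases before each annotated start in RefSeq (GRCm38.p6), where 7 of the 10 genes had a window. The letters searched, on both strands, were GAANNTTC and TTCNNGAA, which are pairs of the heat shock element unit and can overlap each other. At least 1 window of 6 of these 7 genes held either form, beside 14.5% of all 27025 genes with a window and 12.8% of all 32851 windows. Hspd1 and Hspe1 hold the same stretch, the other window of Hspd1 held no match, and Dnajb1 held none in both of its windows. A match is a description of the letters and not evidence of binding, and none of the sequencing measured binding. The stretches are shown because Hspa1a and Hspa1b correlated closely over the libraries and Hspd1 and Hspe1, whose starts share the last stretch, less so (values further on). Capitals mark the matches.
Hspa1a, chr17:34972228-34972285, minus strand: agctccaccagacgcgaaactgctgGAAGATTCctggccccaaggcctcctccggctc
Hspa1b, chr17:34959310-34959367, minus strand: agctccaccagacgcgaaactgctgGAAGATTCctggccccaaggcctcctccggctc
Hspb1, chr5:135887777-135887854, plus strand: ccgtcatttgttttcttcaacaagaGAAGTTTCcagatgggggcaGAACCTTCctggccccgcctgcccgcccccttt
Hsph1, chr5:149636337-149636394, minus strand: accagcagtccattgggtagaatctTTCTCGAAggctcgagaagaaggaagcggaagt
Hspe1, chr1:55088034-55088101, plus strand: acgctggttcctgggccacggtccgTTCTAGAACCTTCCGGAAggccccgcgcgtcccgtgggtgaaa

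The Hspa1a and Hspa1b stretches were identical, with the match 104 bases before the start in both, and over the whole 250 bases 247 positions (98.8%) were the same. The stretch of Hspe1 lies between the Hspe1 start and 1 of the Hspd1 starts, which point away from each other. It holds 3 overlapping pairs of units in a row, which run from 89 to 72 bases before the Hspe1 start and from 144 to 127 bases before this Hspd1 start. The other Hspd1 start lies on the far side of the Hspe1 start. Runs of at least 3 alternating units (GAANNTTC followed by NNGAA, or TTCNNGAA followed by NNTTC) were found in 0.466% of all windows.

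Library totals ran from 4185557 to 25104484 counts, and the share of the 10 genes together ranged from 0.085% to 0.215% among the libraries used. The hip cap libraries HC4 (control) and H502 (50 MPa) stood apart, with 20.5% and 60.6% of their counts in predicted genes against at most 5.6% elsewhere. The study left them out and so did the tests here, which leaves 3 control and 3 50 MPa hip cap libraries. Chondrocyte markers (13 of 13 with counts in every library used) summed to between 24800 and 82300 CPM (counts scaled to a common library size) in hip caps and between 2060 and 5360 CPM in metatarsals, and skeletal muscle markers summed to between 467 and 2590 CPM in metatarsals and at most 82.7 CPM in hip caps. In such bulk tissue, fewer cells of a type and less RNA per cell cannot be told apart. The sequencing run, read from a colour strip of the study's clustering figure and therefore uncertain (its split of the libraries is not the one by sequencing kit in the methods), assigned the hip caps of the fit to run 1 (the 3 controls and the 3 at 50 MPa) or run 2 (all 4 at 5 MPa), and the 3 libraries at 50 MPa were unstranded, as was 1 of the 3 controls (HC3). In hip caps the run was therefore told apart from 5 MPa only through the metatarsals, of which MC1 and M504 were in run 1.

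All 10 genes were detected in every library and passed the filter on low counts. CPM values below are scaled with TMM factors over the 24 libraries, and means ± SD are over the libraries used. Per kilobase of transcript, Hspa8 and the HSP90 genes stood highest. In hip cap controls (n = 3) the level was 328 ± 66 CPM per kb for Hspa8, 238 ± 34 for Hsp90ab1 and 87.3 ± 26.6 for Hsp90aa1. The mitochondrial members followed, Hspd1 with 34 ± 2.56 CPM per kb and Hspe1 with 26.8 ± 12.8, which overlapped. The lowest levels were those of Hspb1 (7.84 ± 6.21 CPM per kb), Hsph1 (7.47 ± 0.928), Hspa1b (5.93 ± 3.61), Dnajb1 (5.19 ± 0.689) and Hspa1a (2.56 ± 1.27), whose order was mostly within their spread. The exceptions were Hsph1, Dnajb1 and Hspa1a, whose means differed from each other by more than their SDs. In metatarsal controls (n = 4) the leading pair changed places, with 232 ± 21.4 CPM per kb for Hsp90ab1 and 169 ± 3.49 for Hspa8. The middle of the order there was Hsp90aa1 (35.6 ± 7.31 CPM per kb), Hspe1 (31.4 ± 6.91) and Hspd1 (20.3 ± 3.19), and Hsp90aa1 and Hspe1 lay within their spread. The lowest were Hspa1b (8.61 ± 11.1 CPM per kb), Hspb1 (7.55 ± 5.47), Hspa1a (6.78 ± 10.4), Hsph1 (5.98 ± 0.533) and Dnajb1 (5.51 ± 0.543), whose order lay within their spread. Over all 10 hip cap libraries used, Hspa8 stood at the 99.4th percentile of the 20825 genes with a length and Hspa1a at the 61.9th, and over the 12 metatarsal libraries at the 99.3rd and the 56.8th.

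**Figure D1:**
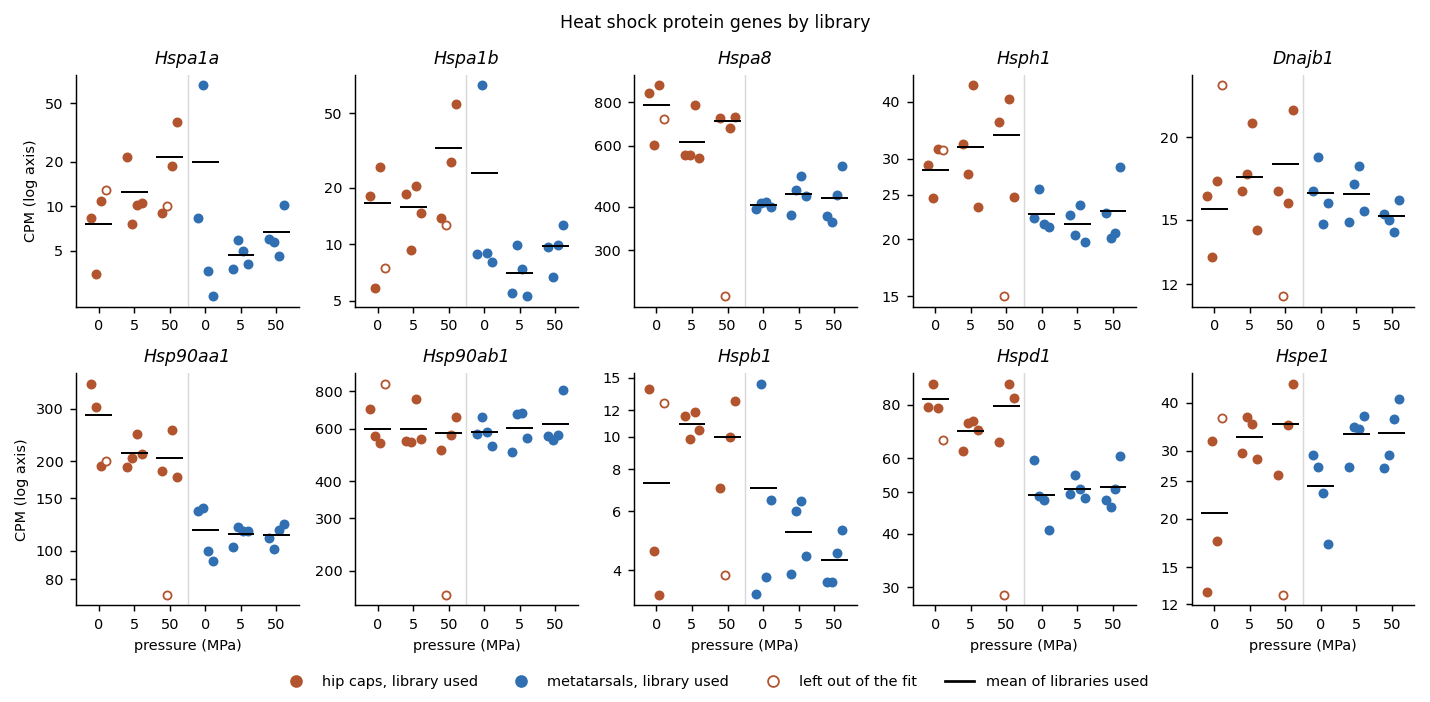
CPM (log axis) of the 10 heat shock protein genes in each library, by pressure in MPa, for hip caps and metatarsals. Filled points are libraries used, open points are HC4 and H502, and lines are means of the libraries used. Metatarsal control MC2 reached 66.1 CPM of Hspa1a and 70.7 CPM of Hspa1b, above all other libraries, while Hspa8, Hsp90aa1 and Hspd1 lay higher in the hip caps used than in metatarsals of the same pressure.

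The first question was whether either pressure changed these genes a day later. None of the 10 passed the threshold (edgeR's quasi-likelihood test with Benjamini-Hochberg adjustment over 21283 genes, adjusted p at most 0.05) in hip caps at 5 MPa, where 0.0188% of all genes did (0.0094% higher and 0.0094% lower), and none in hip caps at 50 MPa, where 5.18% of all genes did. In metatarsals 0 of the 10 passed at 5 MPa or at 50 MPa, where 0% of all genes passed in both. At an unadjusted p under 0.05 stood 1 member at each pressure in hip caps and 3 at each pressure in metatarsals, against 14.8%, 22.6%, 3.24% and 3.89% of all genes in that order. The member in hip caps was Hspe1, and those in metatarsals were Hspe1, Hspa1a and Hspa1b. Hspa1a and Hspa1b share sequence, and their values in metatarsals rested on the single control library MC2 (given further on). DESeq2 called 0 members at 5 MPa in hip caps, 1 at 50 MPa (Hspe1) and 0 at both pressures in metatarsals, beside 2.71%, 11.6%, 0.0612% and 0.0423% of all genes in that order. The median log2 fold change of the 10 genes was 0.15 at 5 MPa and 0.10 at 50 MPa in hip caps and 0.04 and -0.05 in metatarsals, beside medians of all genes between 0.00 and 0.02. The comparisons with control at the 2 pressures of a tissue share their control libraries.

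The intervals give the range of change around each fitted value. They are not adjusted for the number of genes, so they are not the limit for a call. For Hspa8, the 95% interval of the log2 fold change ran from -0.79 to 0.11 in hip caps at 50 MPa and from -0.35 to 0.30 in metatarsals at 50 MPa. For Hspd1 it ran from -0.29 to 0.38 in hip caps and from -0.15 to 0.33 in metatarsals at 50 MPa. The intervals of the inducible Hspa1a were far wider, from -2.13 to 3.41 in hip caps and from -3.79 to -0.06 in metatarsals at 50 MPa. The interval in metatarsals rested on control MC2, without which the log2 fold change was 0.56. A change of Hspa1a in hip caps by several fold in either direction thus lay within its interval.

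**Figure D2:**
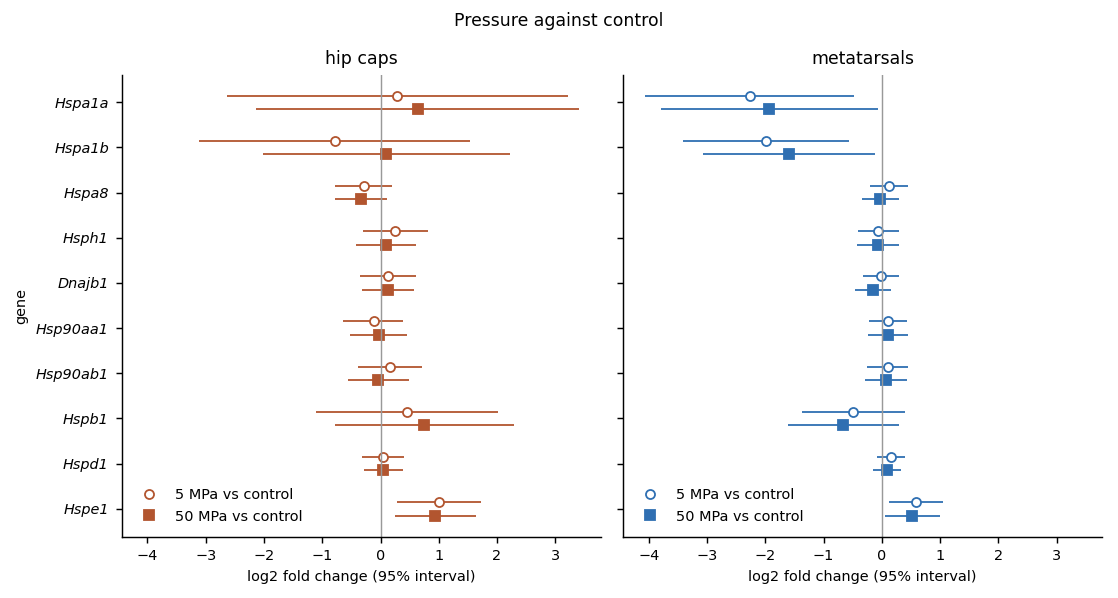
Log2 fold change of the 10 genes against control at 5 MPa (open circles) and 50 MPa (filled squares) with 95% intervals, hip caps on the left and metatarsals on the right. Intervals of Hspa1a, Hspa1b and Hspb1 are the widest, and those of Hspe1 lie above 0 in all 4 comparisons, where its adjusted p-values ran from 0.102 to 1.

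Of the inducible HSP70 genes, Hspa1a measured 8.4, 3.47 and 10.9 CPM in the hip cap controls used, 21.6, 7.58, 10.2 and 10.6 CPM at 5 MPa, and 8.97, 18.7 and 37.1 CPM at 50 MPa. Hspa1b measured 18.1, 5.83 and 25.9 CPM in these controls, 18.5, 9.3, 20.4 and 14.6 CPM at 5 MPa, and 13.8, 27.6 and 56.2 CPM at 50 MPa. The groups overlapped for both genes, and the highest value of each was in the same 50 MPa library, H504, while the lowest was in control HC2. The fitted log2 fold change at 50 MPa was 0.64 (SE 1.29, adjusted p = 0.817) for Hspa1a and 0.10 (SE 0.99, adjusted p = 0.976) for Hspa1b by edgeR, and without H504 it was 0.04 and -0.53. H504 held 27.5% of its counts in protein-coding genes, the lowest share among the libraries, and the part of this in its Hspa1a and Hspa1b values was not tested. At 5 MPa the values were 0.29 (SE 1.37) for Hspa1a and -0.79 (SE 1.09) for Hspa1b, with adjusted p-values of 0.951 and 0.771 (edgeR). These values also moved without metatarsal control MC2, for Hspa1a to 1.73 at 5 MPa and 1.27 at 50 MPa (adjusted p = 0.263 and 0.222).

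In metatarsals, Hspa1a measured 8.32, 66.1, 3.64 and 2.47 CPM in controls MC1 to MC4, 3.76, 5.96, 4.96 and 4.08 CPM at 5 MPa, and 6.04, 5.79, 4.64 and 10.3 CPM at 50 MPa. Hspa1b measured 8.88, 70.7, 8.94 and 7.99 CPM in the controls, 5.49, 9.95, 7.36 and 5.27 CPM at 5 MPa, and 9.61, 6.69, 9.91 and 12.7 CPM at 50 MPa. A single control, MC2, held the high values of both genes, and the other 11 metatarsal libraries lay at most at 10.3 CPM of Hspa1a and 12.7 CPM of Hspa1b. The fitted log2 fold changes were -2.27 (SE 0.84) for Hspa1a and -1.99 (SE 0.67) for Hspa1b at 5 MPa, and -1.93 (SE 0.87) and -1.59 (SE 0.69) at 50 MPa by edgeR, with adjusted p-values of 1 in each case. Without MC2 they were 0.42 and -0.35 at 5 MPa and 0.56 and -0.08 at 50 MPa, so that the direction of Hspa1a turned. Hspa1a and Hspa1b share sequence, with 63.8% of the 31-base words of Hspa1a also in Hspa1b, so reads can be split between them. Their summed counts gave a log2 fold change of -2.10 (SE 0.73) at 5 MPa and -1.72 (SE 0.76) at 50 MPa in metatarsals (edgeR, adjusted p = 1 for both).

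MC2 stood apart in more than the inducible HSP70 genes. Against the mean of the other 3 controls, its CPM was 13.7 times as high for Hspa1a, 8.21 times for Hspa1b and 3.14 times for Hspb1 (14.4 CPM against 3.4, 3.81 and 6.5 CPM), and between 0.989 and 1.27 times for the other 7 members. The genes most like Hspa1a plus Hspa1b across the 22 libraries, by Pearson's r of log2 CPM after subtraction of the tissue mean, were Pkp1 (r = 0.81), Cst6 (0.80) and Krt10 (0.76) among 13647 candidates. Pkp1 encodes a desmosomal plaque protein and Krt10 a keratin of the upper epidermis. In MC2 Pkp1 measured 34.3 CPM and Krt10 91.4 CPM, against at most 0.223 and 3.34 CPM in the other 11 metatarsal libraries. A list of 19 epidermal genes, drawn up after these values were seen, was higher in MC2 than in all other metatarsals for 18 genes (the exception was Itga6). Their summed CPM was 889 in MC2 and between 39.8 and 55.9 in the other metatarsals, and defining keratins such as Krt5 (99.6 CPM) and Krt14 (106 CPM) were at most at 0.456 and 0.206 CPM there. Itga6 alone reached up to 44.5 CPM in the other metatarsals, against 32.4 CPM in MC2. In H504 the summed CPM of the list was 49.9, of which Itga6 held 35.7, within the 43.2 to 57.4 CPM of the other hip caps used. Its genes went both ways there. Pkp1 (2.28 CPM), Dsp (5.71) and Lor (1.43) lay above the other hip caps used (at most 1.22, 4.73 and 0.375 CPM). The other genes of the list did not, with Krt5 and Krt14 at 0. The part of the epidermal genes in the Hspa1a, Hspa1b and Hspb1 values of MC2 was not tested.

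**Figure D3:**
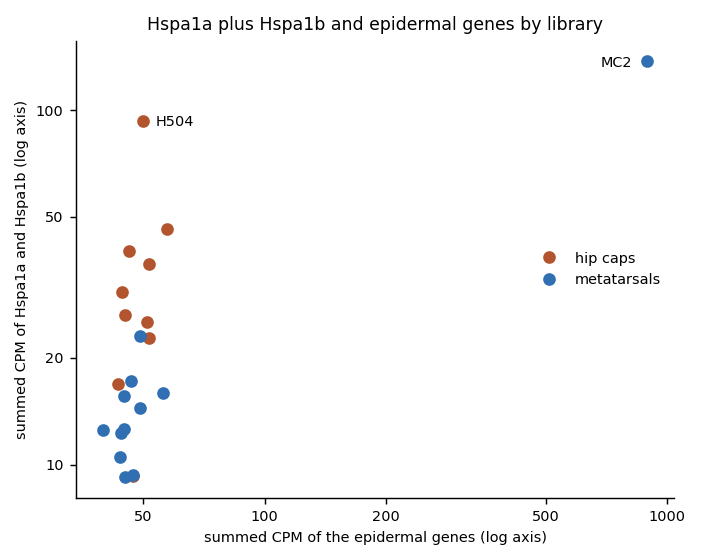
Summed CPM of Hspa1a and Hspa1b against the summed CPM of 19 epidermal genes in the 22 libraries used, both on log axes. MC2 lies alone at 889 CPM of epidermal genes and 137 CPM of Hspa1a plus Hspa1b, while H504 reached 93.3 CPM of the latter with 49.9 CPM of epidermal genes. Of the sum in H504, Itga6 alone held 35.7 CPM.

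None of the other members of the HSP70 cycle passed the threshold under pressure. The constitutive Hspa8 measured 854, 605 and 898 CPM in hip cap controls, 563, 566, 785 and 552 CPM at 5 MPa, and 723, 674 and 725 CPM at 50 MPa, with overlapping groups. Its log2 fold change was -0.29 (SE 0.24, adjusted p = 0.581) at 5 MPa and -0.34 (SE 0.22, adjusted p = 0.362) at 50 MPa by edgeR. Hsph1 lay between 23.5 and 43.5 CPM in the hip caps used and between 19.7 and 28.8 CPM in metatarsals, with fitted log2 fold changes between -0.07 and 0.25 over the 4 comparisons with control. Dnajb1 was the steadiest in metatarsals, between 14.4 and 18.7 CPM in all 12 libraries, and lay between 13.2 and 22 CPM in the hip caps used. Its log2 fold changes ran from -0.15 to 0.13.

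Of the HSP90 genes, Hsp90aa1 measured 364, 303 and 192 CPM in hip cap controls, 191, 205, 246 and 211 CPM at 5 MPa, and 185, 254 and 177 CPM at 50 MPa. The 2 stranded controls used stood above all other hip cap libraries, and the unstranded control HC3 lay among the pressurised ones. The libraries at 5 MPa were all stranded too, with 191 to 246 CPM, and the left-out stranded control HC4 held 200 CPM. The part of library type in these values was not tested. The fit, which carries a term for library type, gave a log2 fold change of -0.12 (SE 0.25) at 5 MPa and -0.03 (SE 0.23) at 50 MPa, and without batch terms it gave -0.48 and -0.44 (edgeR, adjusted p = 0.102 and 0.202). In metatarsals Hsp90aa1 lay between 92.2 and 139 CPM. Hsp90ab1 had nearly the same mean in all 6 groups, from 579 ± 72.9 CPM (hip caps at 50 MPa, n = 3) to 623 ± 123 CPM (metatarsals at 50 MPa, n = 4), and log2 fold changes between -0.04 and 0.17.

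The small heat shock protein gene Hspb1 measured 13.9, 4.57 and 3.38 CPM in hip cap controls, 11.5, 9.87, 11.9 and 10.5 CPM at 5 MPa, and 7.03, 10 and 12.8 CPM at 50 MPa. Control HC1 lay above all libraries of both pressures and the other controls lay below them, so the groups overlapped. Its log2 fold change was 0.46 (SE 0.74) at 5 MPa and 0.75 (SE 0.73) at 50 MPa in hip caps, and -0.49 (SE 0.42) and -0.66 (SE 0.45) in metatarsals, where it was 0.24 and 0.02 without MC2. Without metatarsal control MC1, the Hspb1 values in hip caps were 2.11 at 5 MPa and 1.53 at 50 MPa (edgeR, adjusted p = 0.343 and 0.191).

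Among the mitochondrial members, Hspe1 measured 12.9, 31.8 and 17.5 CPM in hip cap controls, 29.7, 36.8, 35.2 and 28.5 CPM at 5 MPa, and 26, 35.1 and 44.8 CPM at 50 MPa. Controls HC1 and HC3 lay below all pressurised hip caps used, and HC2 lay among them. The mitochondrial share of the counts split the libraries in the same way, with 0.27% in HC1, 0.11% in HC3, 2.05% in HC2 and between 0.96% and 3.26% in the pressurised hip caps used, and its part in the Hspe1 values was not tested. The log2 fold change was 1.01 (SE 0.35, adjusted p = 0.198) at 5 MPa and 0.94 (SE 0.34, adjusted p = 0.102) at 50 MPa by edgeR, the largest positive values among the 10 genes at either pressure in hip caps. Without HC2 they were 1.40 (adjusted p = 0.00939) and 1.12 (adjusted p = 0.0116), which passes the threshold, and with HC4 (36.6 CPM) and H502 (12.7 CPM) in the fit they were 0.29 and 0.35. DESeq2 put the value at 50 MPa past the threshold (0.95, adjusted p = 0.0371) and the one at 5 MPa not (1.02, adjusted p = 0.0786). Within run 1 alone, the value of Hspe1 at 50 MPa in hip caps was 1.07 (edgeR, adjusted p = 0.766), and no such value exists at 5 MPa, where run and pressure coincide.

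Hspe1 in metatarsals measured 29.3, 27.3, 23.3 and 17.2 CPM in controls, 27.2, 34.6, 34.1 and 36.9 CPM at 5 MPa, and 27.1, 29.2, 36.3 and 41 CPM at 50 MPa. Here too the pressurised libraries lay mostly above the controls, with overlap, and the log2 fold change was 0.59 (SE 0.22) at 5 MPa and 0.52 (SE 0.23) at 50 MPa with an adjusted p of 1 for both (edgeR). In the metatarsals of run 2 alone, the Hspe1 values were 0.55 and 0.44 (adjusted p = 0.235 and 0.371). Hspd1, whose product works with that of Hspe1, did not share this pattern. It measured 78.8, 89.5 and 78.7 CPM in hip cap controls, 62.2, 72.4, 73.2 and 69.9 CPM at 5 MPa, and 65.4, 89.5 and 83 CPM at 50 MPa. All libraries at 5 MPa lay below the controls, which 16.4% of all genes did in either direction in this comparison. The fit with the run term, from which 5 MPa in hip caps is not separate within the tissue, gave 0.05 (SE 0.17) and the fit without batch terms -0.30 (edgeR, adjusted p = 0.931 and 0.152). In the other 5 comparisons of pressures within a tissue no member had groups that did not overlap, against 16.1%, 14.8%, 2.77%, 4.42% and 2.41% of all genes (hip caps at 50 MPa against control and against 5 MPa, metatarsals at 5 MPa, at 50 MPa and at 50 against 5 MPa).

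Between the pressures, 0 of the 10 genes passed the threshold at 50 MPa against 5 MPa in hip caps or in metatarsals, where 0% of all genes did in both, with 0 members at an unadjusted p under 0.05 in either tissue, beside 4.78% and 0.761% of all genes, and 0 called by DESeq2. The difference of the response between the tissues was tested as an interaction, which 0 members passed at 5 MPa and 0 at 50 MPa, beside 0.0188% (0.0094% higher, 0.0094% lower) and 0.132% (0.0799% higher, 0.0517% lower) of all genes. At an unadjusted p under 0.05 stood 0 members, beside 11.2% and 18.3% of all genes, and DESeq2 called 0. The largest interaction terms were those of Hspa1a, 2.56 (SE 1.48, adjusted p = 0.524) at 5 MPa and 2.57 (SE 1.44, adjusted p = 0.366) at 50 MPa by edgeR, which were 1.31 and 0.71 without MC2.

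The second question was how the unpressurised tissues differed. In all comparisons of the tissues, age and culture medium coincided with tissue and the sex of the metatarsals was unstated, so these cannot be told apart. Between the controls, 3 of the 10 genes were higher in hip caps and 0 were lower, while 14.1% of all genes were higher and 29.9% were called in either direction. At an unadjusted p under 0.05 stood the same 3 members and 40.3% of all genes. Hspa8 measured 395, 411, 412 and 400 CPM in metatarsal controls, below the 605 to 898 CPM of the hip cap controls, a log2 fold change of 0.83 (SE 0.21, adjusted p = 0.00479, edgeR). Hsp90aa1 measured 136, 139, 100 and 92.2 CPM in metatarsal controls, below the 192 to 364 CPM of the hip cap controls, with a log2 fold change of 1.06 (SE 0.22, adjusted p = 0.00117). Hspd1 measured 59.5, 48.9, 47.9 and 40.8 CPM there, below the 78.7 to 89.5 CPM of the hip cap controls, with a log2 fold change of 0.49 (SE 0.15, adjusted p = 0.0215). The control groups of these 3 genes did not overlap, which held for 42.3% of all genes.

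The partners of Hsp90aa1 and Hspd1 did not pass the threshold. Hsp90ab1, the constitutive HSP90 gene, had 697, 567 and 536 CPM in hip cap controls and 576, 656, 586 and 524 CPM in metatarsal controls (log2 fold change -0.15, SE 0.23, adjusted p = 0.662), beside the 1.06 of Hsp90aa1. Hspe1 had a log2 fold change of -0.52 (SE 0.31, adjusted p = 0.214), beside the 0.49 of Hspd1. The difference between the members of a pair was not tested. The remaining members (Hspa1a, Hspa1b, Hsph1, Dnajb1 and Hspb1) had log2 fold changes between -1.22 and 0.17, with adjusted p-values from 0.503 to 0.965. The lowest of these, Hspa1a, was 0.04 without MC2, where Hspa1b was 0.66, and Hspb1 went from 0.06 to -1.70 without MC1, none past the threshold. When libraries were scaled by size alone, without TMM factors, the median of all genes moved to -0.97, Hspa8 to -0.09 and Hspd1 to -0.43, so that their direction turned, Hsp90aa1 moved to 0.15, and Dnajb1 (-1.03), Hsp90ab1 (-1.06) and Hspe1 (-1.43) were called lower. Leaving out the TMM factors shifts the log2 fold changes of all genes nearly alike. That Hspa8, Hsp90aa1 and Hspd1 lay above the median of all genes under both scalings therefore follows from this and adds no support. Without metatarsal control MC1, the only metatarsal control in run 1, 0 of the 10 passed, with 0.71 for Hspa8, 0.62 for Hsp90aa1 and 0.44 for Hspd1, and 12% of all genes were called. Hspd1 also lost its call without HC3 (edgeR, adjusted p = 0.0788) and without M504 (0.0755).

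**Figure D4:**
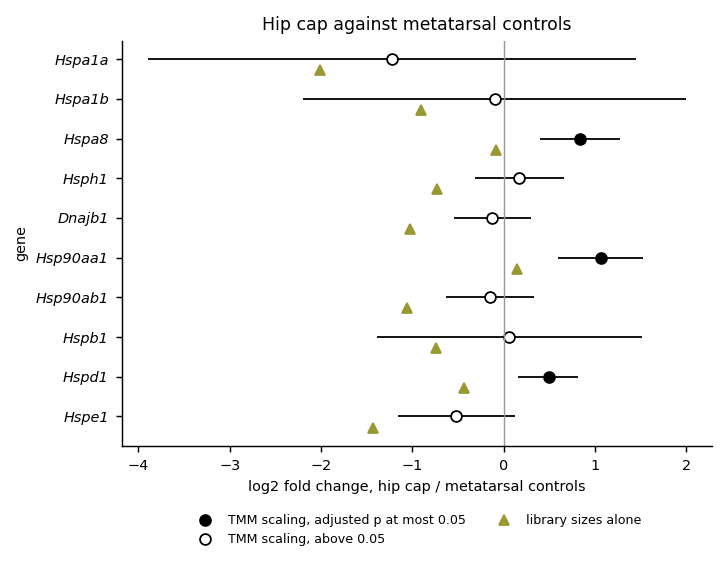
Log2 fold change of the 10 genes between hip cap and metatarsal controls with 95% intervals (circles, TMM scaling; filled where the adjusted p is at most 0.05) and the value with library sizes alone (triangles). With TMM scaling Hspa8, Hsp90aa1 and Hspd1 were higher in hip caps, and with library sizes alone Hspa8 and Hspd1 lay below 0.

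The spread between libraries of a group differed among the members. The within-group SD of log2 CPM in metatarsals was 1.25 for Hspa1a (98.3rd percentile of all genes), 0.93 for Hspa1b and 0.59 for Hspb1, against 0.11 for Dnajb1, 0.17 for Hspa8, Hsph1 and Hspd1, and 0.28 for the median gene. In hip caps the SD was 0.82 for Hspa1a and 0.87 for Hspa1b, 0.16 for Hspd1, 0.21 for Hsp90ab1 and 0.48 for the median gene. Without MC2, the SD in metatarsals was 0.55 for Hspa1a, 0.35 for Hspa1b, 0.35 for Hspb1 and 0.29 for the median gene. Hspa1a thus had the largest SD of the members in metatarsals with and without MC2, while that of Hspa1b rested on MC2.

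Across the 22 libraries, after subtraction of the tissue mean, Pearson's r of log2 CPM was 0.91 between Hspa1a and Hspa1b and 0.80 without MC2. These libraries also share depth and batch, and reads can be split between near-identical genes, so r is given as a description. Both correlated with Dnajb1 (0.57 and 0.62), whose windows held no match, and with Hspb1 (0.59 and 0.58, and 0.30 and 0.31 without MC2). Hspa8 and Hsp90ab1 had r = 0.60 and Hsp90aa1 and Hspd1 0.55, while Hspd1 and Hspe1, with the promoter stretch in common, had 0.33. The median over the 45 pairs was 0.30, with 9 pairs above 0.5 and 4 below 0. The genes most like Hspa8 were Rpl6 (r = 0.88), Atp5a1 (0.87) and Ncaph2 (0.87), those most like Hsp90ab1 were Calr (0.86), Ssrp1 (0.83) and Eif2b2 (0.83), and those most like Hspd1 were Psip1 (0.83), Snrpd1 (0.82) and Hspa9 (0.81), the mitochondrial HSP70 gene.

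Of the 79 further chaperone genes listed (partners of HSP70 and HSP90, other small heat shock proteins, mitochondrial chaperones, the chaperonin TRiC and prefoldin, heat shock factors and chaperones of the endoplasmic reticulum), 75 were tested. In metatarsals 0 were called at either pressure, and in hip caps 0 were called at 5 MPa. At 50 MPa against 5 MPa 0 were called in hip caps and 0 in metatarsals, where 0% of all genes were in both. In hip caps at 50 MPa, 6 were higher and 2 were lower, beside 3.32% and 1.86% of all genes. These calls did not hold in all fits, as 0 remained called without HC3, in the fit of all 24 libraries, of hip caps alone or of run 1 hip caps alone, 4 were called without H503, 5 without MC1 or without M504, and 18 without HC2. All genes called moved with them, from 5.18% to 0.00454% without HC3, 0.00945% with all 24 libraries, 0% in hip caps alone and in run 1 hip caps alone, 1.2% without H503, 1.92% without MC1, 1.98% without M504 and 10.9% without HC2. Chondrocyte markers summed to between 52700 and 82300 CPM in the hip cap controls and between 34600 and 39900 CPM at 50 MPa, osteoclast markers to between 317 and 525 CPM and between 533 and 1590 CPM, and neither overlapped. The part of these, and of the mitochondrial share given with Hspe1, in the chaperone values was not tested.

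Those that rose at 50 MPa included direct partners of the genes above. Dnaja1, an HSP40 gene, measured 18.4, 51 and 26.5 CPM in hip cap controls and 67.6, 72.2 and 63.1 CPM at 50 MPa, without overlap, which held for 16.1% of all genes. Dnaja1 rose by 1.38 on the log2 scale (SE 0.28, adjusted p = 0.0149, edgeR). Hspa4l, of the HSP110 family, measured 7.88, 16.7 and 9.94 CPM and 18.3, 28.7 and 24.5 CPM, also without overlap, and rose by 1.26 (adjusted p = 0.0257). At 5 MPa, where run and pressure coincide in hip caps, Dnaja1 lay between 49.4 and 66.5 CPM and Hspa4l between 18.9 and 26.2 CPM. Neither was called there. With the libraries left out, the control and 50 MPa groups of both genes overlapped. Control HC4 held 56 CPM of Dnaja1 and 31.6 CPM of Hspa4l, and H502 (50 MPa) held 24.9 and 10.5 CPM. In the fit, which carries terms for run and library type, Dnaja2 rose by 1.15, the HSP90 co-chaperone gene Chordc1 by 0.96, the prefoldin subunit gene Vbp1 by 1.62 and the heat shock factor gene Hsf2 by 0.91, with adjusted p-values from 0.0203 to 0.0267 and with overlap between the groups. Their mean CPM rose less, for Dnaja2 from 36.6 ± 13.2 to 61.1 ± 18.4 and for Vbp1 from 11.6 ± 6.82 to 20.4 ± 9.42. For Chordc1 it went from 25.2 ± 12.3 to 29.2 ± 4.36 and for Hsf2 from 12.3 ± 5.36 to 15.3 ± 1.21. Control HC2 held 38.6 CPM of Chordc1 and 18.4 CPM of Hsf2, above all 50 MPa libraries used. Serpinh1, the collagen chaperone HSP47, measured 1560, 983 and 1590 CPM in controls and 817, 668 and 855 CPM at 50 MPa. It fell by 1.04 (SE 0.22, adjusted p = 0.0156, edgeR) and lay between 772 and 922 CPM at 5 MPa. With the libraries left out its control and 50 MPa groups overlapped too, as control HC4 held 594 CPM. The prefoldin subunit gene Pfdn5 fell by 1.24 (SE 0.33, adjusted p = 0.0377, edgeR) with overlap between the groups. It measured 286, 119 and 287 CPM in controls and 99.8, 81.9 and 180 CPM at 50 MPa. At 5 MPa Pfdn5 lay between 72.8 and 81.2 CPM and was not called here, while the study lists it as lower by its DESeq2 fit. The heat shock factor gene Hsf1 had a log2 fold change of -0.38 (SE 0.18, adjusted p = 0.218), Hspa9 0.18 (SE 0.25), and the endoplasmic reticulum chaperones Hspa5 0.51 (SE 0.31) and Hsp90b1 -0.03 (SE 0.37), none past the threshold.

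**Figure D5:**
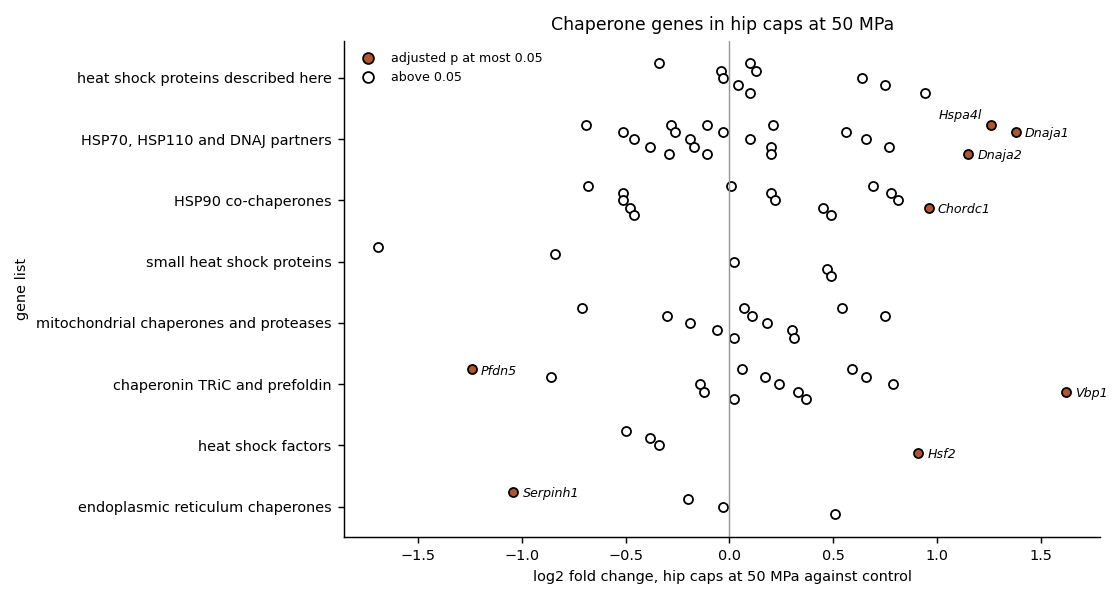
Log2 fold change at 50 MPa against control in hip caps for the 10 heat shock protein genes and 75 further chaperone genes by list, filled where the adjusted p is at most 0.05. Of the 10 genes none is filled, and of the further genes 6 on the right and 2 on the left are.

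Between the controls of the tissues, 22 of these 75 genes were higher in hip caps and 8 were lower, beside 14.1% and 15.9% of all genes. The endoplasmic reticulum chaperones that were called were higher in hip caps, Serpinh1 by 1.60 (SE 0.22) and Hspa5 by 0.98 (SE 0.30) on the log2 scale, as was Pfdn5 by 2.33. Lower in hip caps were Dnaja1 (-1.11, SE 0.25), Hsf2 (-1.06, SE 0.20) and the atypical HSP70 gene Hspa12b (-2.20, SE 0.26). Hsf1 (0.32, SE 0.18), Hsp90b1 (0.82, SE 0.35) and Hspa9 (0.31, SE 0.24) did not pass, with adjusted p-values of 0.193, 0.0842 and 0.353 by edgeR. Without MC1 these 30 calls became 5 and without M504 19, while all genes called went from 29.9% to 12% and 21.1%.

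Part of what was counted for the members could come from near copies. The share of 31-base words found in other genes was 70.1% for Hspa1a, 68.1% for Hspa1b, 55.4% for Hspb1, 53.1% for Hspd1, 51.5% for Hsp90aa1, 44.8% for Hspa8, 30.5% for Hspe1, 13.2% for Hsp90ab1, 0.4% for Dnajb1 and 0.0% for Hsph1. Hspe1 shares 5.7% of its words with Hspd1, on the opposite strand, so that reads of unstranded libraries there cannot be told apart. Adding the counts of predicted genes and pseudogenes with at least 5% of a member's words (without Gm10501, an antisense gene) changed no call of a member in the 9 comparisons. Gm9817 (41.9% of the words of Hspb1) and Gm26825 (38.2% of those of Hspa8) were not found by name among the genes counted and could not be added.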

How the data were processed

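RNA of 24 libraries was sequenced after ribosomal RNA depletion. Per the labels and methods, the authors trimmed the reads with Trim Galore 0.6.5, quantified them with kallisto (genome build GRCm39 in the submitters' processing notes) and brought the result to gene level with tximport. What they deposited are estimated counts, without normalization or filter. RNA was partly degraded. Library type is per the labels, and the methods describe strand-specific libraries throughout, so this term is uncertain, as is the run.

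After rounding to whole numbers, they were analysed in R 4.3.3 with edgeR 4.0.16. Genes kept by filterByExpr (21283 of 52178) were scaled by TMM and fitted by the robust quasi-likelihood method over 22 libraries (without HC4 and H502, as in the study) with terms for group, sequencing run and library type. Tests were two-sided, with Benjamini-Hochberg adjustment within a comparison and a threshold of 0.05. Each SE is the size of the fitted change divided by the square root of its F. A prior count of 2 entered log2 CPM. Lengths are those of the longest coding transcript and, like names and shared words, come from GENCODE M21 (GRCm38), which is not the authors' annotation. Names were matched for 48897 genes. The table holds 0 columns of other samples. The fit was tested on simulated data. Counting error was not separated from the spread between libraries, and where the labels do not tie a library to its own animals (metatarsals) p-values measure the spread between pools.

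Members, lists and tests were chosen with earlier results of these data known, and the epidermal list after its genes were seen. Named are the 10 members, at most the 3 highest and 3 lowest called genes of each list, Hsf1, Hsf2, Hspa5, Hsp90b1 and Hspa9, and the 3 genes most like a member among genes with a mean of at least 1 CPM other than members, predicted genes and pseudogenes, while the epidermal genes named were chosen after their values were seen. Alternatives were DESeq2 1.42.0, RLE factors, library sizes alone, scaling on protein-coding genes, no filter, all 24 libraries, other batch terms, a replicate block, summed Hspa1a and Hspa1b, fits within a tissue or run, leaving out each library, and, added after seeing the data, leaving out MC2 and H504 together, adding near copies, the spread without MC2, and these settings for the further chaperone genes.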

Additional observations from a re-analysis of the deposited data

Results flagged for a closer look

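Of 40 combinations of gene and group with 4 libraries, 5 held a library whose distance to its nearest neighbour exceeded Dixon's 95% limit, where chance gives about 1 in 20. In metatarsal controls, library MC2 stood alone with 66.1 CPM of Hspa1a and 70.7 CPM of Hspa1b, and its epidermal genes (889 CPM in sum) are given beside these values in the report. In hip caps at 5 MPa, replicate 3 (H53) stood alone with 785 CPM of Hspa8 and 756 CPM of Hsp90ab1, above 552 to 566 CPM and 539 to 554 CPM in the other 3 libraries. In metatarsals at 50 MPa, replicate 4 (M504), the only unstranded metatarsal library, stood alone with 808 CPM of Hsp90ab1, above 548 to 572 CPM in the others.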

How the results depend on the processing

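Of 3142 values of a member under an alternative, 3121 kept their side of the threshold, 9 lost a call with their sign kept and 10 gained one. A further 2 called values changed sign and were no longer called, while 259 values that passed in neither fit changed sign. Members called, 0 at both pressures in hip caps, became 1 (Hspe1) with DESeq2 at 50 MPa. Leaving out each library gave 0 to 1 at 5 MPa, 0 to 1 at 50 MPa (1 without HC2 in both) and 0 to 4 between the controls (0 without MC1, 4 without HC2, and 2 without HC3 or M504, where Hspd1 was lost). With library sizes alone Hspa8 was at -0.09, Hspd1 at -0.43 and Hspa4l at -0.05 between the controls, and the median of all genes at -0.97, which this scaling sets. There Hspd1 also lost its call with no filter (adjusted p = 0.0625) and with all 24 libraries (0.108), and the cause was not tested. The further chaperone genes called at 5 MPa in hip caps, 0 in the main fit, were 5 with DESeq2, 9 with no batch terms and 3 with library type alone, and 0 to 13 without a library (13 without HC2). At 50 MPa, instead of 8, they were 16 with DESeq2, 1 with library sizes alone, 0 with all 24 libraries, 5 with no batch terms, 4 with library type alone, 0 in hip caps alone, 0 in run 1 hip caps alone, and 0 to 18 without a library. Between the controls they were 5 to 31 without a library. The cause of these moves was not tested. All genes called at 50 MPa in hip caps numbered 1102, 2455 with DESeq2 and 2 with all 24 libraries.

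Whether equal replicate numbers mark a pairing was not settled. The residual correlation of the 50 pairs with an equal number ran from -0.29 to 0.17, with 10 above 0.1. These pairs were taken within and across the tissues and were not set against pairs with unequal numbers. With the replicate block, 1 member (Hspe1) was called at 5 MPa in hip caps and 1 at 50 MPa (1.30, adjusted p = 0.0495, and 1.20, adjusted p = 0.0191), and between the controls Hspd1 lost its call (0.40, adjusted p = 0.0584) and Hspe1 gained one (-0.73, adjusted p = 0.0428). The block gave 2 further chaperone genes at 5 MPa in hip caps. A comparison at 5 MPa within run 1 or 2 was not run in hip caps, since no run held both groups among the libraries used. Depth limits Hspa1a, Hspa1b and Hspb1, with 22, 37 and 29 counts in HC2.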

Other observations

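Markers of other cell types were summed in CPM over the libraries used. Osteoclast markers summed to between 317 and 1720 CPM in hip caps and between 36.3 and 76.4 CPM in metatarsals, and macrophage markers to between 107 and 703 CPM and between 61 and 120 CPM. The tissues overlapped for all lists given here apart from osteoclast and neutrophil markers. Neutrophil markers summed to at most 190 CPM in hip caps and 4.14 CPM in metatarsals, and erythroid markers to at most 26.7 and 9.72 CPM. Osteoblast markers ranged from 2040 to 10100 CPM in hip caps and from 3390 to 6150 CPM in metatarsals, and endothelial markers from 54.4 to 271 CPM and from 80.2 to 124 CPM. Their part in the difference of heat shock protein genes between the tissues was not tested.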
